A study of Mus musculus with 8 samples.

Results

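The 10 genes described here encode cell adhesion molecules of axons and glia: the 6 contactins (Cntn1 to Cntn6), Nfasc, Nrcam, Cntnap2 and Cadm4, taken by symbol from the 33696 genes counted in nuclei of the mouse optic nerve (ON). Contactins are immunoglobulin-domain proteins held in the membrane by a lipid anchor. At the paranode, where a myelin segment is sealed to the axon, the glial isoform of neurofascin (Nfasc) binds axonal contactin-1 (Cntn1), and beside it, at the juxtaparanode, contactin-2 (Cntn2) on both membranes holds Caspr2 (Cntnap2) and potassium channels in place. NrCAM (Nrcam) gathers at nodes of Ranvier, and Cadm4 is the glial partner of the axonal adhesion proteins Cadm2 and Cadm3 along the internode.

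Nuclear RNA was measured in ONs of female mice on a C57BL/6J background at P120. The question was what loss of the mechanosensitive channel Piezo2 does to the oligodendrocyte (OL) lineage. Of the 8 libraries, each from 6 ONs of 3 mice, 4 came from Piezo2f/f controls without cre (replicates 1 to 4) and 4 from Olig2-cre;Piezo2f/f mice (cKO, replicates 10 to 13), so that both genotypes carry the floxed allele. Olig2-cre acts in all descendants of Olig2-expressing cells and replaces 1 copy of Olig2, and loss of Piezo2 and of that copy cannot be told apart, since libraries with cre alone were not used here. In OLs, Piezo2 was not lower in the second group, with 504, 390, 408 and 494 CPM (counts scaled to a total of 1000000) in the controls against 534, 538, 575 and 524 CPM. Olig2 was at 23.9 to 40.7 CPM in the controls and at 43.5 to 51.9 CPM in the second group, and neither gene passed the test (edgeR adjusted p = 0.54 and 0.23). These are counts of 3′ ends in nuclei, which do not check whether the floxed exons are gone, so the second group is named here only by its label, as libraries labelled cKO.

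The libraries held 39628926 to 56541132 unique molecular identifiers (UMIs), of which 26.6% to 38.6% fell in the 37043 nuclei kept, with a median of 2387 to 3318 UMIs per nucleus. Of 36891 distinct barcodes, 152 occurred in more than 1 library. Nuclei were grouped without using the 10 genes and named from markers, and 3065 nuclei (8.27%) in 8 clusters stayed unnamed. The comparison uses 9 types: OLs (7704 control nuclei and 10559 in the libraries labelled cKO), astrocytes (4120 and 4168), fibroblasts (1766 and 1938), myeloid cells (726 and 856), OL precursor cells (OPCs, 373 and 495), neurons (248 and 188), endothelial cells (191 and 249), committed OPCs (COPs, 78 and 94) and T cells (69 and 70). All markers listed for OLs, OPCs, fibroblasts, endothelial cells, myeloid cells, T cells and neurons were highest in their own type, as were 4 of 5 for COPs and 6 of 7 for astrocytes, and none was at 0 there. Types were named from these same lists, so this outcome was largely set by the naming and is no independent check of it. Library 3 of the controls stood apart. Its OLs carried 1051 CPM of the 5 pituitary markers against 12.1 to 116 CPM in the other libraries, and it held most nuclei of 2 OL clusters, so each count of called genes was also made without those clusters. No such count over the 10 genes changed.

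A level is the CPM of the counts summed over the nuclei of 1 type in 1 library, so n = 4 libraries per genotype, except in T cells, where 2 of the libraries labelled cKO held under 10 nuclei and no genotype test was made. Levels depend on gene length and on where 3′ ends are counted, and are compared here only within a gene. A gene was called when its Benjamini-Hochberg adjusted p over all genes tested was under 0.05 and its log2 difference over 0.5 in size. Free RNA in the droplets supplied an estimated 14.2% to 20.4% of the UMIs of OLs, 14.6% to 36.0% of those of OPCs, 31.0% to 40.7% of those of COPs and 33.6% to 82.4% of those of T cells.

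Several of the genes are neighbours in the genome (GRCm39). Cntn2 (chr1:132437165-132470994, minus strand) and Nfasc (chr1:132492428-132669564, minus strand) lie 21.4 kb apart with 0 protein-coding genes between them. On chromosome 6, Cntn3 (chr6:102139616-102550062, minus strand), Cntn6 (chr6:104469476-104840374, plus strand) and Cntn4 (chr6:105654599-106677105, plus strand) follow each other, with 1.92 Mb and 1 protein-coding gene between the first pair and 0.814 Mb and 0 such genes between the second. Cntnap2 (chr6:45036291-47281147, plus strand) is the longest of the 10 and overlaps 24 other genes on its own strand, of which 0 are protein-coding, so that intronic reads of these genes could not be told from its own. The same holds on a smaller scale for Cntn5 (chr9:9658790-10904780, minus strand), Nrcam (chr12:44375287-44651976, plus strand) and Cntn3, which overlap 4, 2 and 1 such genes. Cntn1 (chr15:91948938-92240393, plus strand) and Cadm4 (chr7:24181425-24203964, plus strand) overlap none on their own strand.

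Because Cntn2 and Cntn3 were highest in OLs and Cntn6 in OPCs, the 250 bases before the first start that RefSeq lists for each (build GRCm38.p6) are shown, 5′ to 3′ on the strand of the gene. Capitals mark CANNTG, the E-box letters read by basic helix-loop-helix factors, which include the Olig proteins, and the pattern is its own reverse complement, so that both strands are searched at once and overlapping matches each count. Cntn2 lies at chr1:132542941-132543190 (minus strand), Cntn3 at chr6:102464668-102464917 (minus strand) and Cntn6 at chr6:104492794-104493043 (plus strand). In the annotation, all 3 starts fall inside longer transcripts of the same gene, for Cntn2 and Cntn6 near its edge and for Cntn3 deep within it. The counts of 3′ ends do not show which start was used.
Cntn2: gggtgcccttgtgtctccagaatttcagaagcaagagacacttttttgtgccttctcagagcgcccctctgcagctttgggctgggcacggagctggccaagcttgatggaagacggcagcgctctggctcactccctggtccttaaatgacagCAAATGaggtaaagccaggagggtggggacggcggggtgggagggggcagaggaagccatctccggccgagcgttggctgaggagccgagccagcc
Cntn3: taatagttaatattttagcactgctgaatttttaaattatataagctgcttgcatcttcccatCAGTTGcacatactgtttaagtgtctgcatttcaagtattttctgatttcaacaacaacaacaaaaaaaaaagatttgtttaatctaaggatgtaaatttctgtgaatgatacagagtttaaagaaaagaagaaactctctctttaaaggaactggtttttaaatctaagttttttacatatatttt
Cntn6: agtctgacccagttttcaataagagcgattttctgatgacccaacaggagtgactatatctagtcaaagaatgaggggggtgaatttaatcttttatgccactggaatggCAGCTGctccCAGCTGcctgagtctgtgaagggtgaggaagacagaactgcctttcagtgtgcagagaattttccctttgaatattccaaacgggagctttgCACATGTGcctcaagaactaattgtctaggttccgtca

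The stretch listed for Cntn3 is poor in G and C, at 26.4% against 61.2% for Cntn2, 45.2% for Cntn6 and a median of 52.4% over the 32851 stretches of the same length listed. Only 0.472% of the listed stretches had a lower share. Cntn2 and Cntn3 each hold 1 E-box and Cntn6 holds 4. Of the other contactins highest in OPCs, the first stretch listed for Cntn4 holds 4 and that for Cntn1 holds 0. At least 1 was present in 66.2% of all listed stretches and at least 4 in 3.84%. A match is a run of letters and no evidence of a bound factor.

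In control ONs, the 10 genes differed in their leading cell type. Cntn2 and Cntn3 were highest in OLs, Nfasc was highest in COPs and next highest in OLs, and Cntn1, Cntn4 and Cntn6 were highest in OPCs and nearly absent from OLs. Cntn5 and Cntnap2 were neuronal, and Nrcam was shared by COPs, astrocytes and OPCs. Each type was set against the mean of the other 8 types in the 4 control libraries, with the library as a block, and 47 of the 90 tests of a member in a type were called. In OLs 7 of 10 were called, 4 higher and 3 lower, against 41.2% of all 11440 genes tested. In OPCs 7 were called, all higher (25.4% of all genes), in COPs 5, all higher (15.5%), and in neurons 7, all higher (37.4%). In astrocytes 1 was higher and 4 were lower (39.1%). In the non-neural types all calls were lower, with 6 in fibroblasts (37.4%), 6 in myeloid cells (34.5%), 3 in endothelial cells (20.6%) and 1 in T cells (9.33%). For 9 of the 90 tests, all of Cntn4, Cntn5 or Cntnap2, edgeR gave no usable SE, and these are not evidence that levels were equal. DESeq2 called 10 members in OLs, 8 in fibroblasts and 8 in myeloid cells, where it called 8462, 6205 and 5137 of all 21834 genes. The calls in endothelial and T cells were not stable, with 0 in either after subtraction of free RNA and 0 to 3 and 0 to 1 when 1 library was left out, the 0 arising without control library 3 in endothelial cells and without control library 2 or 4 in T cells.

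**Figure D1:**
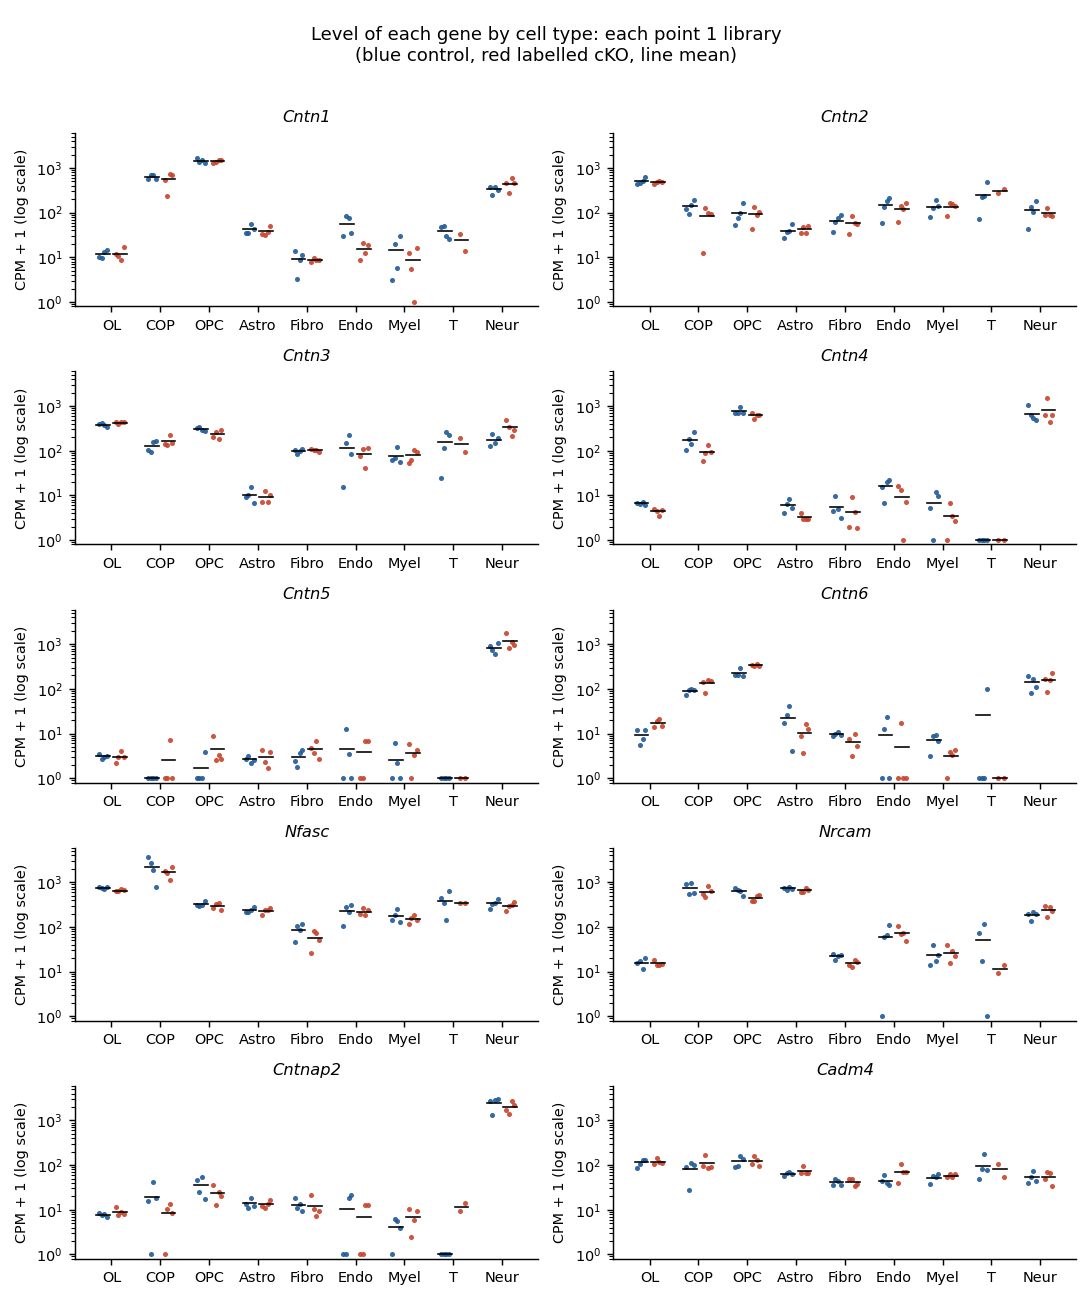
Level of each of the 10 genes in 9 cell types, as CPM + 1 on a log axis; each point is 1 library, blue for control and red for libraries labelled cKO, and lines are means. Cntn5 and Cntnap2 stand out in neurons, Cntn1 and Cntn6 in OPCs, Cntn4 in OPCs and neurons, and Cntn2 in OLs, while Cadm4 is spread across all types.

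Cntn2, the contactin of the juxtaparanode, reached 432, 468, 499 and 632 CPM in control OLs (508 ± 87.1, SD, n = 4). In astrocytes it reached 26.4 to 54.9 CPM and in OPCs 51.3 to 164 CPM. All OL libraries lay above all OPC and all astrocyte libraries, and OLs overlapped only with T cells (70.6 to 476 CPM), the type with the most free RNA. Against the mean of the other types Cntn2 was higher in OLs by 2.59 on the log2 scale (SE 0.10, edgeR adjusted p = 3.8e-23). Free RNA itself carried 202 to 267 CPM of Cntn2. After subtraction of the estimated free RNA, OLs kept 560 CPM and astrocytes 6.8 CPM, while T cells were at 215 CPM, endothelial cells at 101 CPM and myeloid cells at 81.3 CPM. With nuclei thinned to 1000 UMIs and shallower ones left out (229 of 7704 control OLs and 82 of 10559 labelled cKO), 38.7% of control OLs had a Cntn2 UMI, against 8.47% of myeloid cells, a type not known for the gene, whose median depth was 2050 UMIs against 2684 in OLs.

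Cntn3 belongs to the less studied contactins and has no assigned part in the node. It was at 388, 422, 376 and 346 CPM in control OLs and at 324, 346, 287 and 274 CPM in OPCs. The lowest OL library and the highest OPC library were equal to the nearest whole CPM, and neurons (130 to 239 CPM) lay below both types in all libraries. Astrocytes had 9.3 CPM on average. In OLs, Cntn3 was 2.25 (SE 0.14) higher than the mean of the other types on the log2 scale (edgeR adjusted p = 6.8e-18), in OPCs 1.79 (SE 0.18) and in neurons 0.70 (SE 0.20) higher, and in astrocytes it was lower, at -4.12 (SE 0.25). COPs, between OPCs and OLs in development, had only 93.7 to 164 CPM, below every library of both, and did not pass the test against the other types (0.40, SE 0.28, edgeR adjusted p = 0.41). A UMI of Cntn3 was found in 24.4% of OLs and 20.8% of OPCs after thinning, against 7.65% of fibroblasts, 3.57% of myeloid cells and 0.65% of astrocytes, at median depths of 3180, 2050 and 3072 UMIs. Free RNA carried 35.8 to 51.1 CPM of Cntn3 in the control libraries.

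Nfasc, which encodes neurofascin with glial and neuronal isoforms that these counts do not separate, had 800, 742, 720 and 799 CPM in control OLs. COPs had 3719, 2651, 1917 and 770 CPM in sums of 10 to 30 nuclei each. COPs were highest on average but varied widely, and their lowest library lay within the range of OLs. OPCs had 297 to 385 CPM and astrocytes 211 to 287 CPM, both below OLs in all libraries. Against the other types together, the log2 difference was 3.11 (SE 0.19) in COPs and 1.63 (SE 0.18) in OLs (edgeR adjusted p = 1.6e-17 and 1.3e-10).

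Cntn1, the axonal partner of glial neurofascin and in OPCs a surface protein of the precursor itself, had 1636, 1340, 1525 and 1272 CPM in control OPCs. COPs followed with 561 to 710 CPM and neurons with 253 to 383 CPM. These 3 types did not overlap with each other or with any other type, and the next type, endothelial cells, averaged 54.8 CPM. OLs had 8.7 to 13.8 CPM, below the 42.5 to 59.4 CPM of free RNA in the same libraries. Cntn1 was 5.18 (SE 0.13) above the mean of the other types in OPCs and 3.70 (SE 0.19) in COPs on the log2 scale. A Cntn1 UMI was found in 72.2% of thinned OPC nuclei and 1.16% of thinned OL nuclei, with 0.94% in fibroblasts.

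Cntn4 and Cntn6, both contactins of axon guidance and synapse formation, had the same leading type. Cntn4 was at 706, 707, 960 and 707 CPM in control OPCs and at 482 to 1057 CPM in neurons, ranges that overlap. COPs had 103 to 257 CPM and OLs 5.3 to 6.1 CPM, and T cells had 0 counts in all 4 control libraries, where 3 counts over the group would be 16.9 CPM. Cntn6 was at 207, 205, 287 and 194 CPM in OPCs, 81.9 to 195 CPM in neurons, 73.8 to 98.6 CPM in COPs and 4.5 to 11.2 CPM in OLs. For Cntn6 too, OPCs overlapped with neurons and lay above COPs in every library. Against the other types together, it was higher by 3.67 (SE 0.27) in OPCs, 2.73 (SE 0.29) in neurons and 2.13 (SE 0.49) in COPs on the log2 scale. Free RNA carried 3.8 to 10.1 CPM of Cntn6, about the level of OLs.

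Nrcam, an L1-family protein of nodes and growing neurites, was at 930, 536, 950 and 567 CPM in COPs. Astrocytes had 736, 685, 792 and 701 CPM and OPCs 750, 673, 651 and 485 CPM. The order of these 3 types cannot be told, since all ranges overlap, and astrocytes led once TMM-scaled CPM were used. OLs had 10.4 to 18.9 CPM, below the 78.3 to 106 CPM of free RNA, and 1.57% of thinned OL nuclei had a UMI against 48.4% of astrocytes. On the log2 scale Nrcam was 3.29 (SE 0.19) above the mean of the other types in COPs, 3.23 (SE 0.15) in astrocytes and 3.18 (SE 0.16) in OPCs, and below it at -2.81 (SE 0.27) in OLs.

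Cntn5 and Cntnap2 were the neuronal members. Cntn5 was at 900, 744, 601 and 1087 CPM in neurons and at no more than 3.6 CPM on average in any other type. Cntnap2, the axonal Caspr2 of the juxtaparanode, was at 2688, 1297, 2842 and 2977 CPM in neurons, and of the other types compared OPCs came next with 35.2 CPM on average. Mural cells, which were too few to compare, had 95.0 and 394 CPM of Cntnap2 in 2 control libraries. These values rest on 3 and 9 UMIs, and the 2 mural sums labelled cKO had 0. Neither gene reached the lowest neuronal library in a library of another type. After thinning, 64.3% of neurons had a Cntnap2 UMI and 21.7% a Cntn5 UMI, against 0.67% and 0.19% of OLs. The ON holds axons and few cell bodies of neurons, and where these nuclei came from was not tested.

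With free RNA left in, the levels of Cadm4 differed least between types. Control OLs had 86.9, 108, 132 and 128 CPM and OPCs 90.9, 94.8, 157 and 136 CPM, and the mean of the lowest type, fibroblasts, was still 40.1 CPM. Free RNA carried 146 to 183 CPM in the same libraries, above the mean of every type. Cadm4 was 1.13 (SE 0.10) higher in OLs and 1.12 (SE 0.14) higher in OPCs than the mean of the other types on the log2 scale. Once free RNA was subtracted, OLs kept 104 CPM and OPCs 101 CPM, while myeloid cells had 1.1 CPM, and the difference of OLs from the other types was 2.90. A UMI was found in 14.3% of thinned OPCs, 9.99% of OLs and 5.35% of myeloid cells.

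Set directly against each other, OLs and OPCs differed in 7 of the 10 genes, 2 higher and 5 lower in OLs, where 40.5% of all genes were called. Cntn2 was higher in OLs by 2.57 (SE 0.19) and Nfasc by 1.33 (SE 0.28) on the log2 scale (edgeR adjusted p = 1.9e-15 and 0.00011). Lower in OLs were Cntn4, at -6.98 (SE 0.25), Cntn1, at -6.97 (SE 0.25), Nrcam, at -5.33 (SE 0.26), Cntn6, at -4.66 (SE 0.30), and Cntnap2, at -2.27 (SE 0.34), with edgeR adjusted p from 3.7e-26 to 4.8e-07. The difference of Cntn3 was 0.41 (SE 0.21, edgeR adjusted p = 0.12) and passed the test only when nuclei were thinned, at 0.55. Cadm4 differed by 0.01, and 2 SE on either side span -0.29 to 0.30. Cntn5 had 1 UMI in all control OPCs and was not called. Subtraction of free RNA, whose own levels of Cntn1 and Nrcam exceed those of OLs, moved Nrcam to -12.27, Cntn1 to -8.91, Cntn4 to -7.68, Cntnap2 to -3.27 and Cntn2 to 3.72, so that the sizes for genes near 0 in OLs are not firm. The scaling also mattered for the size of these values, since the size factors of DESeq2 moved the median gene by -0.26 in this comparison and by -0.29 in OLs against the other types. No called direction changed with them.

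**Figure D2:**
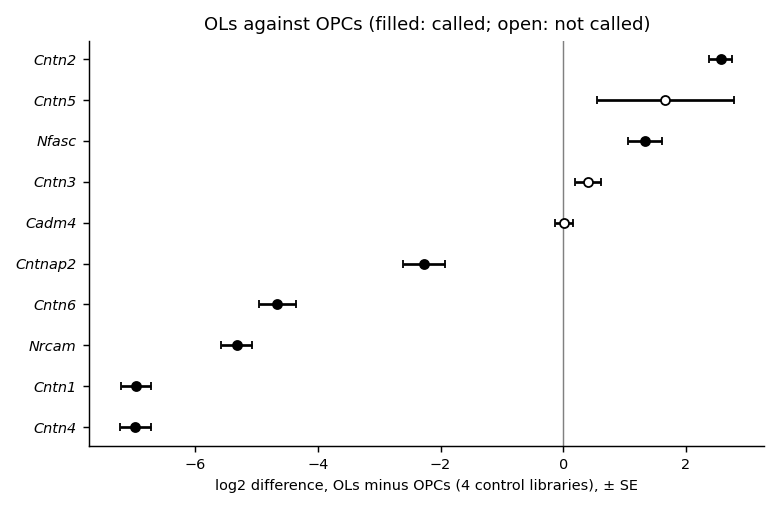
Log2 difference between OLs and OPCs in the 4 control libraries for each of the 10 genes, with the SE as bars; filled points were called and open points were not. Cntn1 and Cntn4 lie near -7, Cntn2 and Nfasc lie above 0, and Cadm4 lies at 0.

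Of a list of 42 other genes of nodes, paranodes, juxtaparanodes, internodes and contactin partners, 37 were tested between OLs and OPCs, and 13 were higher and 15 lower in OLs, where 40.5% of all genes were called. The median of the 37 was -0.30, against 0.13 over all genes. All 9 tested genes of the node and initial segment were called, 3 higher and 6 lower, with a median of -4.72. Vcan in this group and Mag of the internode were also markers used to name OPCs and OLs. Their calls (-7.98 and 2.30) are in these counts and were largely set by the naming. Of the juxtaparanode, 3 of 6 were higher and 0 lower, and of the paranode 3 of 4 were higher and 1 was lower. Hapln2, a link protein of the nodal matrix, was at 2.58 (SE 0.21) and Scn8a, a nodal sodium channel, at -4.72 (SE 0.22).

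Over the 38 sums of a control library and a type, those of mural cells included, the genes most like each member were described by the Pearson correlation of log2(CPM + 1). The sums share their libraries, and the values are descriptions. Cntn2 ran closest to Mog, Mag and Prr5l (0.95, 0.94 and 0.93), of which Mog and Mag encode myelin proteins. Cntn1 ran closest to Myt1, Grid1 and Dscam (0.90, 0.90 and 0.89), Cntn4 to Dpp10, Plppr1 and Grm5 (each 0.93), and Cntn6 to Egfem1, Acp1 and Lrrc7 (0.90, 0.86 and 0.85). Nrcam was most like Ptprz1, Plekha7 and Apba2 (0.89, 0.87 and 0.87), where Ptprz1 encodes a receptor phosphatase of glia that binds contactin-1. Nfasc was most like Gm11659, Mapt and Gm16168 (each 0.84), Cntn3 like 4930587E11Rik, 2410021H03Rik and Tmeff1 (0.93, 0.87 and 0.86), Cntn5 like Gm2516, Lrrc3b and Dlx6os1 (each 0.95) and Cntnap2 like Meg3, Kcnh1 and Syt1 (0.83, 0.83 and 0.82). Cadm4 had no close match, with 0.66 for Olig2, 0.61 for Sox2ot and 0.60 for Mapre2.

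Among OLs, Cntn3 varied with subtype and Cntn2 hardly did. OLs of each library were ranked by 2 scores from known subtype markers and cut into 3 equal parts, and the upper part was set against the lower in the control libraries, with the library as a block. The first score sets Trf, Apod and Klk6 against the myelin genes Mbp, Mog and Mal (2567 control nuclei per part). Of 8 members tested, 1 was called, against 3.83% of all genes. Cntn3 rose from 294, 308, 251 and 232 CPM in the lower part to 458, 507, 536 and 442 CPM in the upper, a log2 difference of 0.83 (SE 0.06, edgeR adjusted p = 7.3e-24). The ranges do not overlap, and the level was higher in the upper part in 8 of 8 libraries, those labelled cKO included.

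The second score sets Grm3 and Jph4 against Far1 and Pmp22 within the upper part by the first (854 control nuclei per part). Of 4 members tested, again 1 was called, against 4.08% of all genes. Cntn3 fell from 559, 652, 642 and 558 CPM to 323, 308, 409 and 267 CPM, a difference of -0.86 (SE 0.08, edgeR adjusted p = 1.4e-26), and was lower in 8 of 8 libraries. Nfasc moved the opposite way each time but stayed under the size threshold. It was at -0.22 (SE 0.04, edgeR adjusted p = 9.4e-05) for the first score and at 0.22 (SE 0.06, edgeR adjusted p = 0.013) for the second, with 8 of 8 libraries in the same direction in both. Over the edgeR and DESeq2 alternatives, the adjusted p of Nfasc rose to as much as 0.51 and 0.61. Cntn2 differed by -0.04 and 0.02. Of the related genes, Tnr, which encodes the matrix protein tenascin-R, was called for the first score at 1.12 (SE 0.13) and Lgi3, a secreted partner of Adam22 at juxtaparanodes, for both, at -0.60 (SE 0.07) and 0.73 (SE 0.13). They were the only genes called among 28 and 24 tested.

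**Figure D3:**
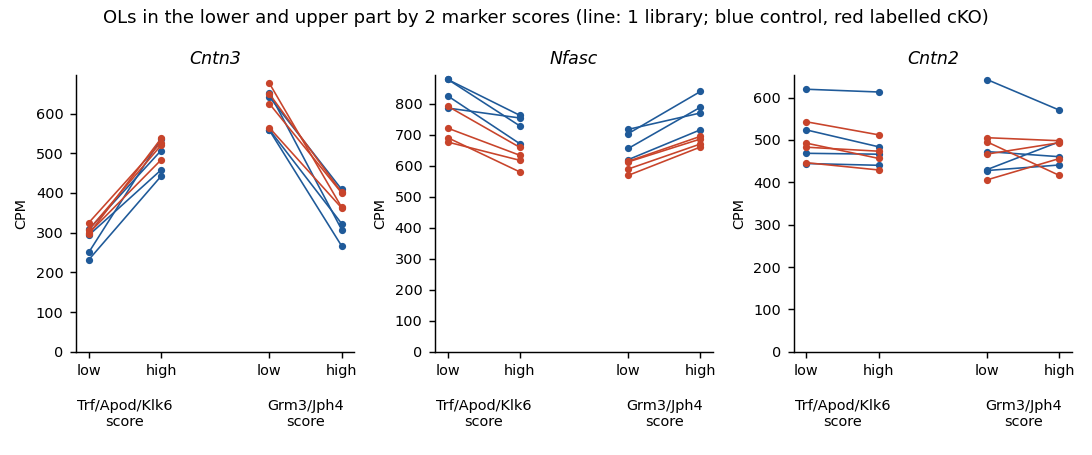
CPM of Cntn3, Nfasc and Cntn2 in OLs of the lower and upper part by the Trf/Apod/Klk6 score and by the Grm3/Jph4 score; each line joins both parts of 1 library, blue for control and red for libraries labelled cKO. All 8 lines of Cntn3 rise with the first score and fall with the second, those of Nfasc run the other way, and those of Cntn2 are nearly flat for the first.

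OLs were also divided into 10 subclusters (s0 to s9) without use of the 10 genes, and levels in them are given as a description. In controls, Cntn3 ran from 94.6 CPM (85.8 to 106) in s0 to 734 CPM (695 to 807) in s1, a ratio of 7.76. Cntn2 ran from 465 to 561 CPM, a ratio of 1.20, and Nfasc from 550 CPM in s1 to 1067 CPM in s8, a ratio of 1.94. Subcluster s0 (3720 nuclei), led by Kit, Synpr and Kirrel3, thus had the lowest Cntn3 and, at 1063 CPM, close to the highest Nfasc, and s1 (3073 nuclei), led by Dlc1, Tox and Art3, the reverse. Over all subclusters the opposition was weaker, with a Pearson r of Cntn3 and Nfasc of -0.46 in controls and -0.65 in libraries labelled cKO. A second high level of Cntn3, 724 CPM (670 to 796), lay in s5 (1518 nuclei), with Etl4 and Galnt18 among its leading genes.

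For comparison, the glutamate receptor gene Grik1 and the proteoglycan gene Spock3 were at 966 and 901 CPM in s1 and at 240 and 325 CPM in s0 of the controls. Over the subclusters, Cntn3 ran with Grik1 (Pearson r = 0.87 over 10 in controls and 0.80 over 9 in libraries labelled cKO) and against Opalin (r = -0.91 and -0.94), an OL membrane protein gene. With Spock3, r was 0.74 and 0.67, and with Il33 it was -0.79 and -0.81. These points come from the same libraries and clustering. Grik1 and Spock3 were leading genes, together with Cntn3, of an OL cluster in these same data, and Opalin is a marker used to name OLs. Their agreement with Cntn3 is therefore a description and no independent support. Cadm4 ranged over a ratio of 1.54 and the other members stayed at 24.9 CPM or less in every subcluster of the controls. Subcluster s7 (996 nuclei) was 93.6% from control library 3, was led by the hormone genes Avp, Pomc, Gh and Prl and reached 10 nuclei in 0 libraries labelled cKO, and s2 (3067 nuclei, 22.1% from controls) had the lowest median depth, 1925 UMIs.

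**Figure D4:**
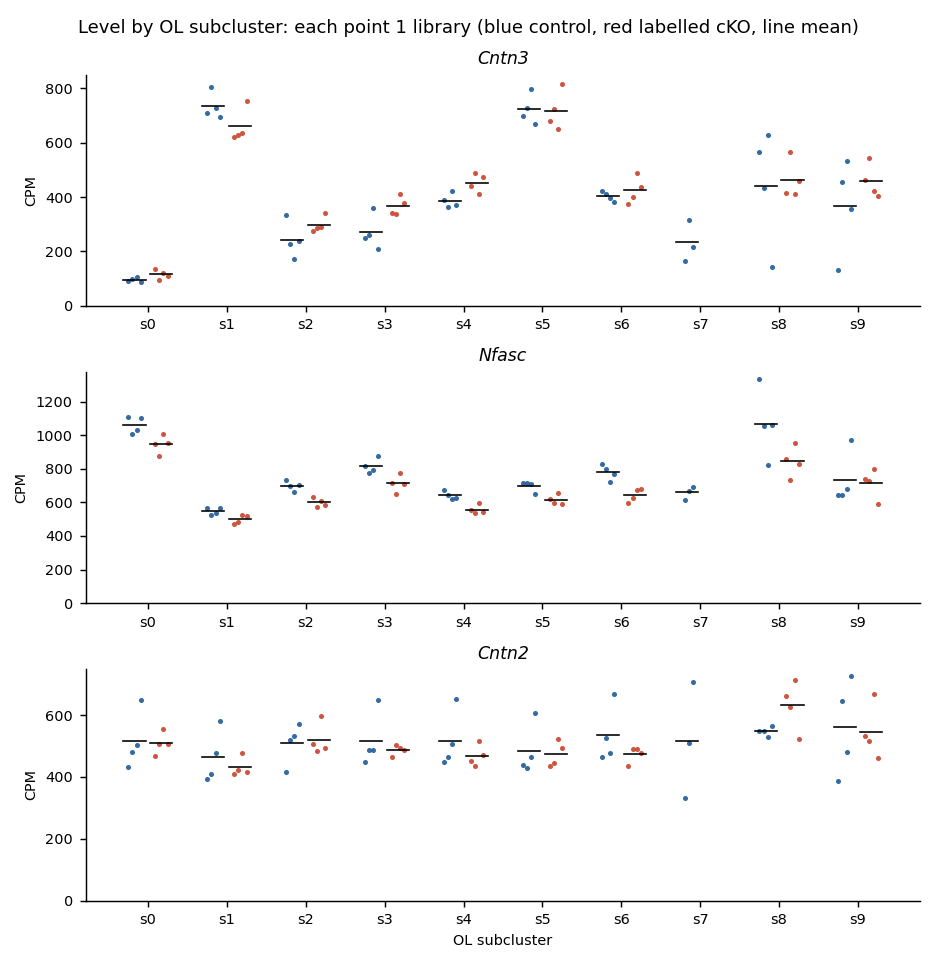
CPM of Cntn3, Nfasc and Cntn2 in the 10 OL subclusters; each point is 1 library, blue for control and red for libraries labelled cKO, and lines are means. Cntn3 is lowest in s0 and highest in s1 and s5, Nfasc is high in s0 and lowest in s1, and Cntn2 stays in a narrow band.

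Between genotypes, none of the 10 genes was called in any of the 8 cell types tested, and genes with too few counts in a type were not tested there. Of 63 tests of a member in a type, 0 were called by edgeR and 0 by DESeq2, and 12 had an unadjusted p under 0.05. Over all genes, edgeR called 0.0973% in OLs and 0.175% in OPCs and 0% in astrocytes, COPs, endothelial cells, fibroblasts, myeloid cells and neurons. Of the members, 3 of 10 in OLs and 5 of 9 in OPCs had an unadjusted p under 0.05, with 1 of 8 in fibroblasts, 1 of 8 in COPs, 1 of 5 in endothelial cells, 1 of 10 in neurons, 0 of 8 in astrocytes and 0 of 5 in myeloid cells. Over all genes this held for 1294 of 14388 in OLs, 458 of 7438 in OPCs, 571 of 13034 in fibroblasts, 194 of 3184 in COPs, 186 of 4154 in endothelial cells, 238 of 6355 in neurons, 1113 of 14538 in astrocytes and 469 of 8126 in myeloid cells. In OLs the median log2 difference of the 10 was -0.01, against 0.02 over all genes.

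In OLs, 3 members had genotypes whose libraries did not overlap. Cntn6 was at 10.9, 4.5, 6.4 and 11.2 CPM in controls, and the libraries labelled cKO had 13.3, 18.3, 19.8 and 13.4 CPM, a log2 difference of 0.96 (SE 0.26, edgeR adjusted p = 0.30). Nfasc was at 800, 742, 720 and 799 CPM against 638, 624, 704 and 658 CPM, at -0.24 (SE 0.09, edgeR adjusted p = 0.50). Cntn4 was at 5.8, 5.4, 6.1 and 5.3 CPM against 4.1, 3.5, 2.5 and 3.8 CPM, at -0.73 (SE 0.20, edgeR adjusted p = 0.33). Of the 10 members, 1 thus lay wholly above and 2 wholly below the controls, where 2.77% of all genes tested in OLs lay above and 3.12% below. Cntn6 and Cntn4 rest on few UMIs, 189 and 131 in all control OLs. Free RNA held 3.8 to 10.1 CPM of Cntn6 and 7.4 to 16.2 CPM of Cntn4 over the 8 libraries, so that OLs of the libraries labelled cKO lay above it for Cntn6 and all OL libraries lay below it for Cntn4. After thinning to 1000 UMIs, an Nfasc UMI was found in 51.6% of control OLs (50.2% to 53.3% over libraries) and in 46.4% (45.1% to 48.9%) of those labelled cKO. For Cntn6 the shares were 0.55% (0.34% to 0.76%) and 1.12% (0.84% to 1.37%), against 0.71% and 0.64% in fibroblasts. Control OLs were thus no higher than fibroblasts. For Cntn4 the shares were 0.40% and 0.42%, against 0.41% and 0.43% in fibroblasts, and so close to fibroblasts in both genotypes. A background share was not measured. After subtraction of free RNA, control OLs kept 8.7 CPM of Cntn6 and 4.2 CPM of Cntn4. Those labelled cKO kept 18.2 and 2.1 CPM, and neither gene overlapped between genotypes. Median depths were 2684 and 2632 UMIs in OLs and 3180 and 3119.5 UMIs in fibroblasts, where Nfasc was found in 5.47% and 4.39%.

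The other 7 members overlapped between genotypes in OLs. With the label cKO, Cntn3 was at 432, 404, 430 and 432 CPM (0.13, SE 0.09) and Cntn2 at 445, 475, 520 and 480 CPM (-0.10, SE 0.12, from -0.34 to 0.14 within 2 SE). The remaining 5 differed by -0.08 to 0.22. By subcluster, with no test, the mean of Nfasc was lower in the libraries labelled cKO in 9 of 9 and that of Cntn6 was higher in 9 of 9, while that of Cntn4 was lower in 6 and higher in 3, and the subclusters share the same 8 libraries. The pituitary markers were lower in OLs of each library labelled cKO (12.1 to 38.4 CPM) than in those of each control library (53.0 to 1051 CPM). The 6 OPC markers were lower there too, at 269.6 to 286 CPM against 298 to 389 CPM, while the 7 astrocyte and 7 neuronal markers overlapped between genotypes. Of the members highest in OPCs, Cntn4 was lower, Cntn6 higher and Cntn1 nearly equal (0.01, SE 0.22) in these OLs. The part of the marker lists in these values was not tested.

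**Figure D5:**
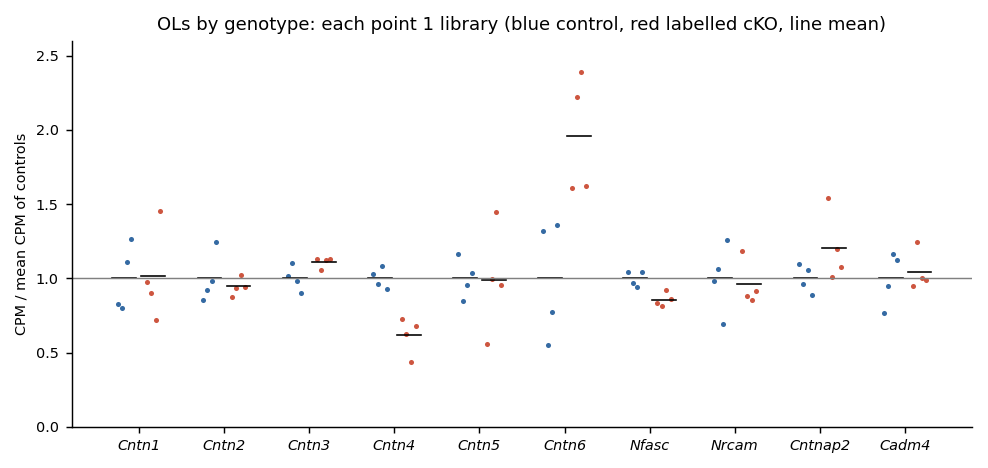
CPM of each gene in OLs, divided by the mean of the 4 control libraries; each point is 1 library, blue for control and red for libraries labelled cKO, and lines are means. Cntn6 lies above and Cntn4 and Nfasc lie below the controls without overlap, and no gene passed the test.

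In OPCs, Cntn6 again lay higher in all 4 libraries labelled cKO, at 347, 317, 359 and 331 CPM against 207, 205, 287 and 194 CPM in controls. Its log2 difference was 0.57 (SE 0.16, edgeR adjusted p = 0.31), and it was the only 1 of 9 members without overlap, where 1.91% of all genes lay wholly above the controls and 1.83% wholly below. Nrcam was at 750, 673, 651 and 485 CPM in controls, and the libraries labelled cKO had 387, 373, 487 and 507 CPM, a difference of -0.57 (SE 0.16, edgeR adjusted p = 0.31) with overlap. The other members with an unadjusted p under 0.05 in OPCs were Cntnap2 (-0.80), Cntn3 (-0.38) and Cntn4 (-0.31). Cntnap2 rests on 56 and 42 UMIs in all OPCs, at 16.6 to 53.1 CPM in controls and 12.1 to 34.7 CPM in the libraries labelled cKO. Free RNA held 14.8 to 43.2 CPM of Cntnap2 in the controls and 12.3 to 20.2 CPM in the libraries labelled cKO. In astrocytes 0 of 8 tested members lay apart, where 2.06% of all genes lay above and 2.63% below, and the largest difference among them was that of Cntn6, at -1.08 (SE 0.57, edgeR adjusted p = 0.68). Cntn4, too low there to be tested, was at 3.03 to 7.41 CPM in control astrocytes and at 1.95 to 2.98 CPM in those of libraries labelled cKO, without overlap. These Cntn4 values rest on 60 and 29 UMIs in all. They lie below free RNA, at 9.4 to 16.2 CPM in the controls and 7.4 to 13.1 CPM in the libraries labelled cKO. The shares over all genes do not cover genes that were not tested. Cntn1 was also too low to be tested in endothelial cells. It was there at 29.3 to 82.4 CPM in controls and at 7.6 to 20.2 CPM in libraries labelled cKO, without overlap. These levels rest on 53 and 14 UMIs in all. In neurons, with 20 to 134 nuclei per library, Cntn3 was at 130, 239, 145 and 196 CPM against 490, 336, 216 and 288 CPM (0.97, SE 0.28, edgeR adjusted p = 1.00).

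Whether OLs and astrocytes differed in the effect of genotype was tested as an interaction. Of the 10 members 0 were called by edgeR and 0 by DESeq2, 1 had an unadjusted p under 0.05, and 0.0809% of all genes were called. That member was Cntn6, at 2.01 (SE 0.59, edgeR adjusted p = 0.50), with 3.0 to 41.0 CPM in control astrocytes. Leaving out control library 4, the lowest of the control astrocyte libraries, raised it to 2.54 with an adjusted p of 0.042.

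Of the 42 related genes, 32 were tested between genotypes in OLs and 0 were called by edgeR and 0 by DESeq2, with 5 at an unadjusted p under 0.05 in edgeR (1294 of 14388 over all genes). Their median was -0.12, against 0.02 over all genes. The highest were Hapln2, at 0.53 (SE 0.21), and Kcna2, a juxtaparanodal potassium channel, at 0.44 (SE 0.14). The lowest were Scn8a, at -0.35 (SE 0.25), and Kcnq3, a nodal potassium channel, at -0.30 (SE 0.11). Scn8a was at only 3.1 to 5.7 CPM in controls and 2.6 to 3.8 CPM in the libraries labelled cKO, with overlap. Kcnq3 was at 953 to 1173 CPM in controls and 745 to 930 CPM in the libraries labelled cKO, without overlap and without passing the test (edgeR adjusted p = 0.49).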

How the data were processed

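Nuclei of mouse ONs were measured in 8 libraries made with a droplet kit for 3′ ends. Per the submitters' processing notes, UMIs were counted with Cell Ranger 7.0.0 on GRCm39 (the matrix headers name another version), and the values the authors deposited are raw counts per gene and barcode, with every barcode kept. The removal of free RNA and the integration described in the methods are not part of these counts and were not repeated.

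Nuclei were called by the rules of Cell Ranger and filtered by the limits in the methods (at least 200 genes, at most 5% mitochondrial counts, 5 median absolute deviations for counts, genes and the share of the top genes, and 3 for mitochondrial counts), and doublets were removed by Scrublet score at 0.8% per 1000 nuclei. Clusters (scanpy 1.11.5, Leiden resolution 3, 30 components, 2993 variable genes, the 10 genes left out) were named from markers by rules set after the clusters were seen, with OL, COP and OPC markers treated as 1 lineage. The 10 genes, the related genes, the markers and the tests were chosen with earlier results of these data known. Named are the 10 genes, Piezo2 and Olig2 as checks of the labels, those of the 42 related genes that were called or had the 2 highest or 2 lowest differences between genotypes in OLs, and for each member the 3 genes of most similar level. The levels of Kcnq3 and Scn8a by genotype, Hapln2 and Scn8a between OLs and OPCs, and Tnr and Lgi3 between OL parts by score were chosen after their values were seen. Grik1, Spock3, Opalin and Il33, given with the OL subclusters, fall outside these rules and were named with results of these data known. Vcan and Mag are also named as related genes that served as markers.

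Counts were summed per library and type (at least 10 nuclei and 1000 counts) and tested with edgeR 4.0.16 (quasi-likelihood, TMM, filterByExpr), two-sided, with DESeq2 1.42.0 as the alternative. Libraries are the replicates, and in the genotype tests p-values measure the spread between pools of 3 mice. The cell type, interaction and OL score tests hold the library as a block. Their p-values measure the spread of differences within libraries and not that between pools. In all tests edgeR shares its estimate of spread across genes. Standard errors come from the F statistic. The tests were checked on simulated counts. Free RNA was estimated from empty droplets. Precision is limited by 4 libraries per genotype and by small sums, most of all for COPs and T cells, and mural cells were too few to compare. Alternatives were another tool, no filter, no block, thinning to 1000 UMIs, nuclei with at least 1000 UMIs, subtraction of free RNA and leaving out each library. Leaving out 2 OL clusters with over 75% of nuclei from 1 library was added after seeing the data.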

Additional observations from a re-analysis of the deposited data

Results flagged for a closer look

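In 6 of 103 groups of 4 libraries, 1 library lay farther from the other three than expected at a rate of about 1 in 20 groups, and chance alone would give about that many. In OPCs, control library 3 had 960 CPM of Cntn4 against 706 to 707 CPM in the other controls, and 287 CPM of Cntn6 against 194 to 207 CPM. Cntn3 was at 404 CPM in OLs of library 11, labelled cKO, against 430 to 432 CPM in the others of that label. The same library had 129 CPM of Cntn2 in neurons against 85.0 to 87.3 CPM and 94.7 CPM of Cadm4 in astrocytes against 65.8 to 67.3 CPM. In COPs, Cntn3 was at 225 CPM in library 12, labelled cKO, against 134 to 145 CPM. Control library 3 is the one with the pituitary RNA in its OLs, and its part in these values was not tested.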

How the results depend on the processing

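Of the counts of called members under each alternative, 264 stayed within 1.5 times the main count and 23 did not. Of single values, 411 kept their direction and side of the threshold or moved by less than 1 SD, 4 newly passed the test, 7 levels moved by more than 1 SD and 1 turned. Thinning to 1000 UMIs gave 1 call in endothelial cells, 3 in fibroblasts, 3 in myeloid cells and 2 in T cells, where 969, 2244, 2355 and 636 of 5676 genes were called. Subtracting free RNA left 0 in endothelial cells and 0 in T cells. In T cells DESeq2 called 2 members, the fit without a library block 2, and the fit without a filter 3. Without a filter, 2 members were called between genotypes, 1 in OLs (Cntn6, 0.98, adjusted p = 0.042) and 1 in endothelial cells (Cntn1, -1.89, adjusted p = 0.027), 1 in the interaction (Cntn6, 2.02) and 2 for the first OL score (Cntn4 added, at -1.56). Leaving out 1 library at a time gave 0 to 3 calls in endothelial cells, 0 to 1 in T cells, 0 to 1 in the interaction and 1 to 2 for the first OL score, with the highest of the last pair reached without control replicate 4 (Cntn4 added, at -1.89). The genotype difference of Cntn2 in OLs ran from -0.16 to 0.022 with 1 library left out, and turned without control replicate 4. Leaving out the 2 OL clusters changed no count beyond 1.5 times. The cause of these changes was not tested.

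Counts over all genes moved more. In OLs 14 genes were called between genotypes, 54 by DESeq2 and 55 without a filter, and in OPCs 13, 12 and 34. Without a filter 11 to 60 genes were also called in the other 6 types (44 of 19899 in endothelial cells), where the filtered test called 0. For the first OL score 430 genes were called, 206 by DESeq2, 175 without the block and 104 after thinning, and for the second 330, 105, 132 and 62. Over the alternatives Cntn3 stayed called for both scores, at 0.58 to 0.91 and -0.97 to -0.79. Its highest adjusted p, 0.0016 and 0.00055, came from edgeR without the block. Genotype differences in OLs ran from 0.75 to 1.17 for Cntn6, with adjusted p from 0.042 to 0.83, from -0.30 to -0.21 for Nfasc and from -1.05 to -0.62 for Cntn4. In the interaction Cntn6 reached up to 2.54, with adjusted p from 1.2e-15 without a filter to 1.00. The leading type stayed the same for 8 of 10 genes with TMM-scaled CPM, the exceptions being Nrcam (astrocytes) and Cadm4 (OLs). No paired analysis was possible because the genotypes share no replicate numbers.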
